A study of Mus musculus with 8 samples.

Results

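The natriuretic peptide genes, their receptors and the main effectors of the cyclic guanosine monophosphate (cGMP) they produce were examined in mouse brown adipose tissue (BAT) after thoracic aortic constriction (TAC), which loads the left ventricle with pressure by narrowing the aorta. The group holds 9 genes, chosen by symbol with no threshold on their values, namely the peptides Nppa, Nppb and Nppc, the receptors Npr1, Npr2 and Npr3, the kinases Prkg1 and Prkg2 and the phosphodiesterase Pde5a. Each was represented by 1 probe, so that 9 of the 55681 probes of the array, and 9 of the 21150 genes that could be named, belong to it. Male C57BL/6NCrSlc mice on normal chow were operated on at 11 weeks of age, received either TAC or a sham operation (Sham), and gave BAT at 13 weeks of age, 4 mice per group with 1 one-colour Agilent array per mouse. No allele or drug is named in the labels for either group. The labels state the time after surgery as 2 weeks in some fields, which fits the stated ages, and as 4 weeks in the description line. Scanner intensities were analysed for Sham replicates 2, 3 and 4 and TAC replicates 1 to 4, and Sham replicate 1 entered only through a table of 8 arrays whose values are on their own scale. Nothing in the labels says more than that each array is a separate mouse, and all p-values measure the spread between these arrays.

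Atrial natriuretic peptide (Nppa) and B-type natriuretic peptide (Nppb) are hormones made mainly by cardiac muscle and released when the heart wall is stretched, while C-type natriuretic peptide (Nppc) acts locally, for instance from endothelium. Nppa and Nppb products bind the receptor encoded by Npr1 and the Nppc product binds that encoded by Npr2. Both receptors are guanylate cyclases, whose cGMP activates the kinases encoded by Prkg1 and Prkg2 and is broken down by phosphodiesterases such as that of Pde5a. The receptor encoded by Npr3 has no cyclase domain and removes the peptides from the circulation. In fat cells, cGMP signalling is known to promote lipolysis and the thermogenic programme that includes Ucp1, the uncoupling protein of brown fat.

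Of the 9 genes, 7 could be tested between TAC and Sham, and none of the 7 passed an adjusted p of 0.05 in limma. The same was true of all 33364 probes tested, of which 0% passed in either direction, with a smallest adjusted p of 0.0575. At an unadjusted p of 0.05, limma called 0 of the 7 genes, beside 12.8% of all probes, and the methods' t-test called 0 of the 7 after adjustment. The adjusted p of the 7 genes in limma lay between 0.472 and 0.943. For 0 of the 7 did the TAC arrays lie wholly above or below the Sham arrays, which was the case for 16% of all probes measured on the 7 arrays, and with Sham replicate 1 added in the table of 8 arrays 0 of the 7 did so, beside 9.82% of all probes. The estimate was higher after TAC for 6 genes and lower for 1, while 44.2% of all probes had a higher estimate. The median difference of the 7 genes, TAC minus Sham, was 0.16 on the log2 scale and that of all probes was -0.032. Without TAC replicate 1 the median of the 7 genes was 0.070.

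**Figure D1:**
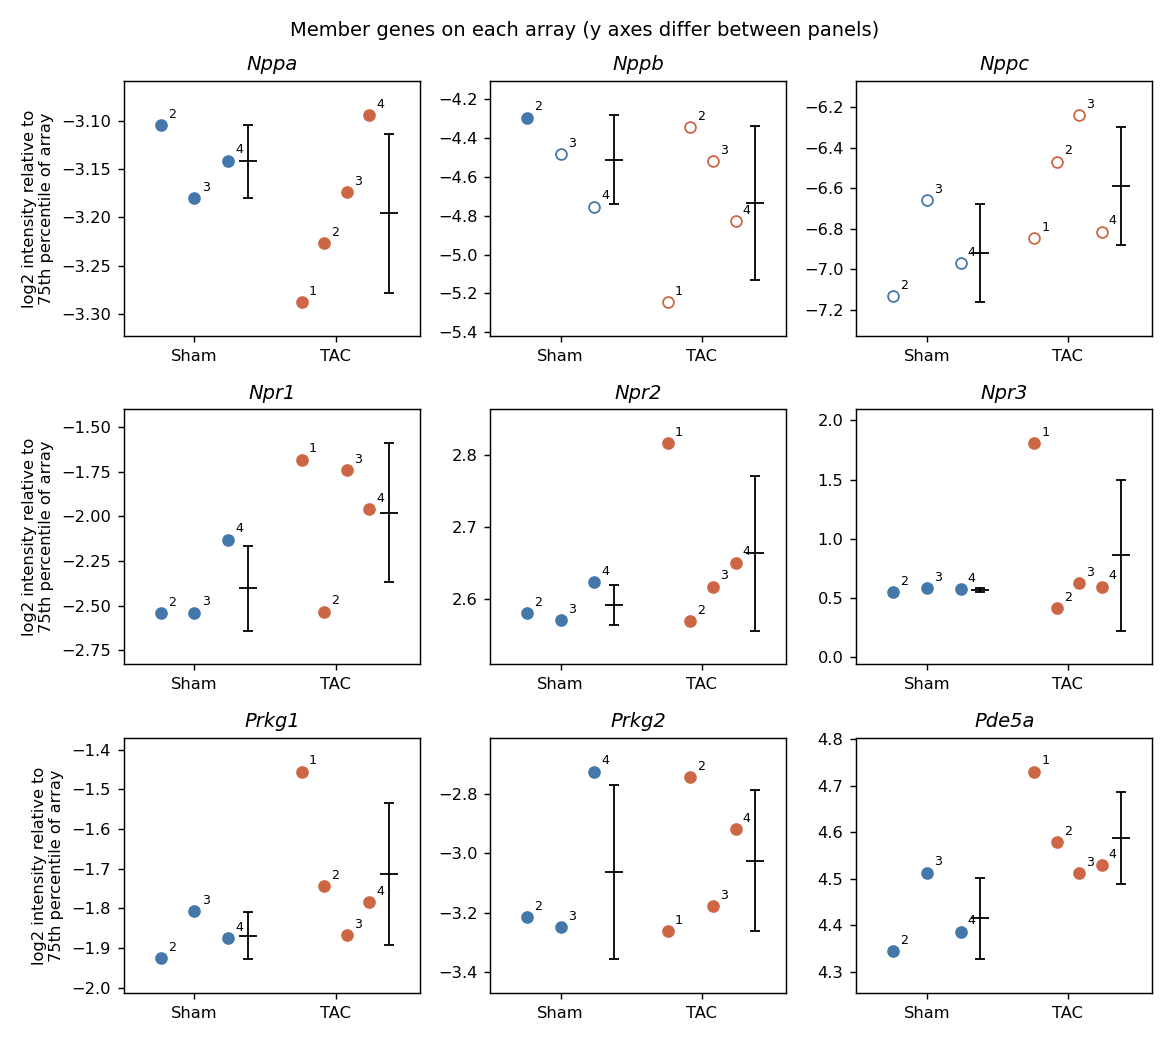
Level of each of the 9 genes on the 7 arrays, as log2 intensity relative to the 75th percentile of the array, with 1 point per array, numbered by replicate, and bars for the group mean ± SD (y axes differ between panels). Open points mark arrays on which the probe was not well above background. The 2 groups overlap in every panel, in Pde5a at a single point, and for Npr3 TAC replicate 1 lies at 1.81 while the other arrays lie between 0.42 and 0.63.

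TAC replicate 1 stood apart from the other arrays in its markers of cell types, as the mean of a list of marker genes relative to Sham replicates 2 to 4. The 9 markers of brown adipocytes, among them Ucp1 and Cidea, were well above background on all 7 arrays, which fits the labelled tissue. Their mean was -1.23 on TAC replicate 1, from -0.52 to -0.022 on TAC replicates 2 to 4 and from -0.13 to 0.15 in Sham. Elovl3, at -5.54, and Dio2, at -2.59, carried most of the low mean of TAC replicate 1. Ucp1 was at -1.17 there, Plin5 at -0.81, Cidea at -0.40, Prdm16 at -0.37 and Cox8b at -0.33. Adipoq was at -0.023 and Pparg at 0.15. Without Elovl3 and Dio2, left out after their values were seen, the mean of the other 7 markers was -0.42 on that array, against -0.056 to 0.022 on the other TAC arrays and -0.060 to 0.076 on the Sham arrays. The mean of 8 macrophage markers was 0.87 on TAC replicate 1, against -0.50 to -0.14 on the other TAC arrays and -0.15 to 0.19 on the Sham arrays. Of the 8, 7 were at their highest on TAC replicate 1, while Cd163, well above background on 6 arrays, was at its lowest. The 8 skeletal muscle markers had means of 1.61, 1.06, -0.46 and 1.47 on TAC replicates 1 to 4. On Sham replicates 2 to 4 their means were -0.85, 0.84 and 0.0046. All 8 had a higher mean in TAC than in Sham. All 7 scanned arrays shared 1 slide and 1 scan day, with the Sham arrays in row 1 and the TAC arrays in row 2, and slide position and group cannot be told apart. Between 54.5% and 64.3% of the spots of an array were well above background. In pieces of whole tissue, fewer cells of a type and less RNA per cell cannot be told apart.

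Of the peptide transcripts, that of Nppa was dim but well above background on all 7 arrays. Those of Nppb and Nppc were at or near the background. All 3 peptide genes have the sequence TATAAA in the 250 bases upstream of their annotated start, which 12.4% of the 32851 mouse promoters in the same RefSeq table have on either strand. It was found in none of the 6 promoters listed for the receptors, Prkg1 and Pde5a, and Prkg2 had no entry. The 3 sequences are shown because this feature separates the peptide genes from the other members with a listed promoter. They are printed 5′ to 3′ from RefSeq on GRCm38.p6. Their positions are chr4:148000472-148000721 on the plus strand for Nppa, chr4:147985650-147985899 on the plus strand for Nppb and chr1:86670574-86670823 on the minus strand for Nppc. Capitals mark TATAAA and, in Nppc, also GGGCGG, which was searched on both strands and occurs in 32.7% of promoters.
Nppa: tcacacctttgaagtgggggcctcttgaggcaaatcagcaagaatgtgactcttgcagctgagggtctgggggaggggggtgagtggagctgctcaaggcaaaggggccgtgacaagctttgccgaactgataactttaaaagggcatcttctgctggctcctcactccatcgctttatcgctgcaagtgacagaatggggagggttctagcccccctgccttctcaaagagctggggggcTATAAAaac
Nppb: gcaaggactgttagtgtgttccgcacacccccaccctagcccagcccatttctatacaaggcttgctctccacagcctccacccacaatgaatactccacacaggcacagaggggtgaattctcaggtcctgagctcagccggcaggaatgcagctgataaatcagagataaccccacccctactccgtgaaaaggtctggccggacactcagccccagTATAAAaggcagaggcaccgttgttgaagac
Nppc: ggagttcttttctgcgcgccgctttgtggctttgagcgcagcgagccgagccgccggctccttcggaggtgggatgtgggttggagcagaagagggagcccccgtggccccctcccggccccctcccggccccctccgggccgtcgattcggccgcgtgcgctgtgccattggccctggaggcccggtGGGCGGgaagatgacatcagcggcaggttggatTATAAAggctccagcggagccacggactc
The first base of TATAAA lies 9 bases before the annotated start in Nppa, 31 in Nppb and 29 in Nppc. These are matches of letters, and the arrays did not measure binding at any of them.

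Nppa, which encodes atrial natriuretic peptide, was measured by 10 spots on each array and was well above background on all 7. Its level, as log2 intensity relative to the 75th percentile of the array, was -3.10, -3.18 and -3.14 on Sham replicates 2, 3 and 4 and -3.29, -3.23, -3.17 and -3.09 on TAC replicates 1 to 4. The 2 groups overlapped, with the highest and the lowest level both on TAC arrays. The difference, TAC minus Sham, was -0.054 with an SE of 0.082 and a limma adjusted p of 0.798, a fold of 0.963 with a 95% interval from 0.843 to 1.1. The intensities of this probe were between 50.6 and 70.4 units over a local background of about the same size, 45.8 to 49.5 units. Among 6 markers of cardiac muscle, 2 (Nkx2-5 and Myl4) were well above background on all arrays and Myl7, a myosin light chain of the atrium, on none. The mean of all 6 relative to Sham lay between -0.88 and -0.038 on the TAC arrays and between -0.33 and 0.22 on the Sham arrays. It includes dim probes, as Tnnt2 was well above background on 1 array and Tnni3 on 3. The part of these markers in the level of Nppa was not tested.

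Nppb, the gene of B-type natriuretic peptide, was well above background on 1 of 3 Sham arrays and on 0 of 4 TAC arrays. Its level was -4.29, -4.48 and -4.75 on the Sham arrays and -5.25, -4.34, -4.52 and -4.83 on the TAC arrays. TAC replicate 1 was the lowest of the 7, and the other TAC arrays lay within or next to the Sham range. No fold is given, because the probe was not well above background on most arrays of either group. Nppc, the gene of C-type natriuretic peptide, was well above background on 0 of 7 arrays. Its measured values were -7.13, -6.66 and -6.97 on the Sham arrays and between -6.84 and -6.24 on the TAC arrays, and no fold is given.

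All 3 receptors were well above background on every array. Npr1, the guanylate cyclase receptor of the cardiac peptides, had the highest estimated difference of the 7 genes on all 7 arrays, but not under every setting, as without TAC replicate 3 it was 0.34 and that of Npr3 was 0.37, and with normexp background correction they were 0.23 and 0.26. Its level was -2.54, -2.54 and -2.13 on Sham replicates 2, 3 and 4 and -1.68, -2.53, -1.74 and -1.96 on TAC replicates 1 to 4. TAC replicates 1, 3 and 4 lay above all Sham arrays, whereas TAC replicate 2 lay at the level of the lower Sham arrays. The mean was -2.40 ± 0.24 (SD, n = 3) in Sham and -1.98 ± 0.39 (SD, n = 4) in TAC. The difference was 0.42 with an SE of 0.23 and a limma adjusted p of 0.472, a fold of 1.34 with a 95% interval from 0.926 to 1.94. Without TAC replicate 2, the lowest TAC array, the difference was 0.61 (limma unadjusted p = 0.00714, adjusted p = 0.262). With any other single array left out it was between 0.33 and 0.56, with a limma unadjusted p from 0.0676 to 0.240. The 0.33 was without TAC replicate 1. In the table of 8 arrays Sham replicate 1 had a level of -2.27, within the range of the other Sham arrays there, -2.35 to -1.94, and the difference was 0.42 with a limma adjusted p of 0.378.

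Npr2, the guanylate cyclase receptor of C-type natriuretic peptide, had nearly the same level on all arrays but 1. It was 2.58, 2.57 and 2.62 on the Sham arrays and 2.82, 2.57, 2.62 and 2.65 on the TAC arrays. TAC replicate 1 was the highest array, TAC replicate 2 lay just below all Sham arrays, and TAC replicate 4 was slightly above them. The difference was 0.071 with an SE of 0.088 and a limma adjusted p of 0.75, and it was 0.021 without TAC replicate 1. The 95% interval of the fold ran from 0.910 to 1.21.

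Npr3, the clearance receptor, had a level of 0.55, 0.58 and 0.58 on the Sham arrays and 1.81, 0.42, 0.63 and 0.60 on the TAC arrays. A single array set the spread of the TAC group, since TAC replicate 1 lay 1.26 above the mean of the other TAC arrays, or 2.40-fold, and 1.18 above the highest of all other arrays. A gap of 1 or more of this kind, with TAC replicate 1 above every other array, occurred in 1.58% of all probes. The spot had an intensity of 2116 units on TAC replicate 1 and between 667 and 884 units elsewhere and its local background on that array was 44 units. The mean was 0.57 ± 0.018 (SD, n = 3) in Sham and 0.86 ± 0.64 (SD, n = 4) in TAC. The difference was 0.29 with an SE of 0.32 and a limma adjusted p of 0.721, a fold of 1.22 with a 95% interval from 0.721 to 2.08. Without TAC replicate 1 the difference was -0.023 with an SE of 0.085 and a limma adjusted p of 0.934. On that 1 array the mean of the macrophage markers was high, although Cd163 was at its lowest. The brown adipocyte mean, which rests mostly on Elovl3 and Dio2, was low there. The means of the skeletal muscle, fibroblast and lymphocyte lists, at 1.61, 0.29 and 0.80, were also at their highest there. Of the 6 lymphocyte markers, 2 were well above background on all arrays. The part of any of these lists in the level of Npr3 was not tested. In the table of 8 arrays Sham replicate 1 had a level of 0.49 and the other Sham arrays 0.76 to 0.77, while TAC replicate 1 had 2.00.

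**Figure D2:**
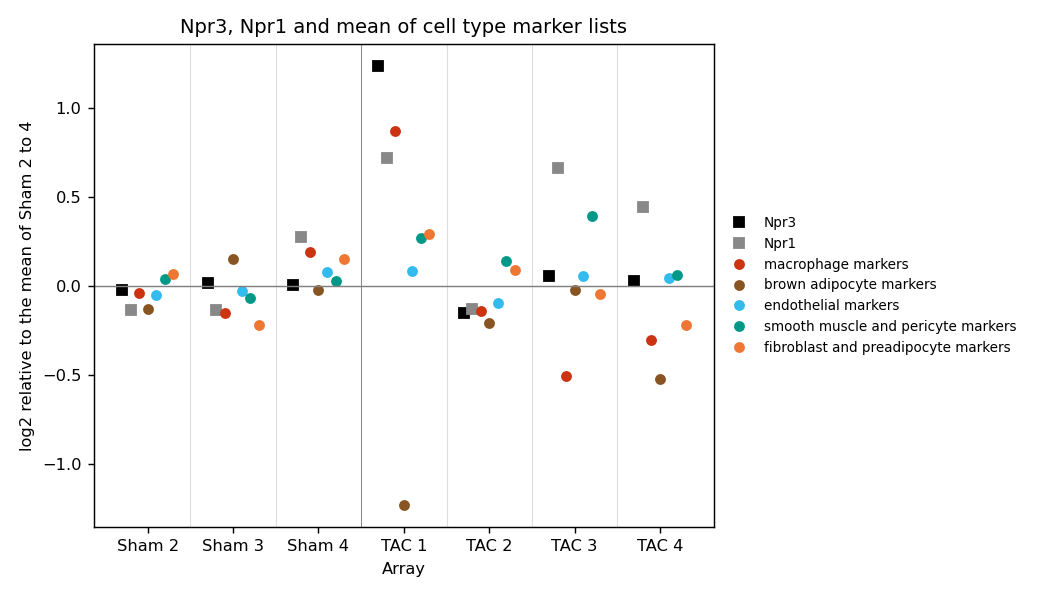
Npr3 and Npr1 (squares) and the mean of 5 lists of cell type markers (circles) on each of the 7 arrays, as log2 intensity minus the average over Sham replicates 2 to 4, with the symbols of an array set side by side only to keep them apart. On TAC replicate 1 Npr3 and the mean of the macrophage markers are high. The mean of the brown adipocyte markers, carried mostly by Elovl3 and Dio2, is at -1.23 on that array. Npr1 is high there and also on TAC replicates 3 and 4.

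The balance of the signalling and the clearance receptor was described by the difference of Npr1 minus Npr3 within each array, which does not depend on how arrays are scaled. It compares how the readings of 2 probes moved and is no ratio of molecules. It was -3.09, -3.12 and -2.71 on the Sham arrays and -3.49, -2.95, -2.37 and -2.56 on the TAC arrays. The TAC arrays spanned both the lowest and the highest value. The change of this difference from Sham to TAC was 0.13, with a two-sided p of 0.743 by exact permutation of the 7 arrays (35 splits, smallest possible p 0.0286). Without TAC replicate 1 the change was 0.35 with an exact permutation p of 0.2. In the table of 8 arrays it was 0.077 with an exact permutation p of 0.83.

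Downstream of cGMP, Pde5a, the phosphodiesterase that breaks it down, had a level of 4.34, 4.51 and 4.39 on the Sham arrays and 4.73, 4.58, 4.51 and 4.53 on the TAC arrays. The groups touched at Sham replicate 3 and TAC replicate 3, and the other TAC arrays lay above all Sham arrays. The mean was 4.41 ± 0.088 (SD, n = 3) in Sham and 4.59 ± 0.099 (SD, n = 4) in TAC. The difference was 0.17 with an SE of 0.092 and a limma adjusted p of 0.472, a fold of 1.13 with a 95% interval from 0.969 to 1.31. In the table of 8 arrays, in which Sham replicate 1 was the lowest at 4.37, the difference was 0.22 with a limma unadjusted p of 0.0524 and an adjusted p of 0.357.

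Prkg1, the cGMP-dependent kinase that is abundant in smooth muscle, had a level of -1.92, -1.81 and -1.87 on the Sham arrays and -1.46, -1.74, -1.87 and -1.78 on the TAC arrays. TAC replicate 1 was the highest array, and TAC replicate 3 lay within the Sham range. The difference was 0.16 with an SE of 0.12 and a limma adjusted p of 0.586, and it was 0.070 without TAC replicate 1. The 95% interval of the fold ran from 0.923 to 1.35. Prkg2, the second kinase of this kind, was dim but well above background on all arrays, at -3.22, -3.25 and -2.73 on the Sham arrays and -3.26, -2.74, -3.18 and -2.92 on the TAC arrays. The groups overlapped over almost their whole range, and the difference of 0.038 had an SE of 0.18 and a limma adjusted p of 0.943.

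**Figure D3:**
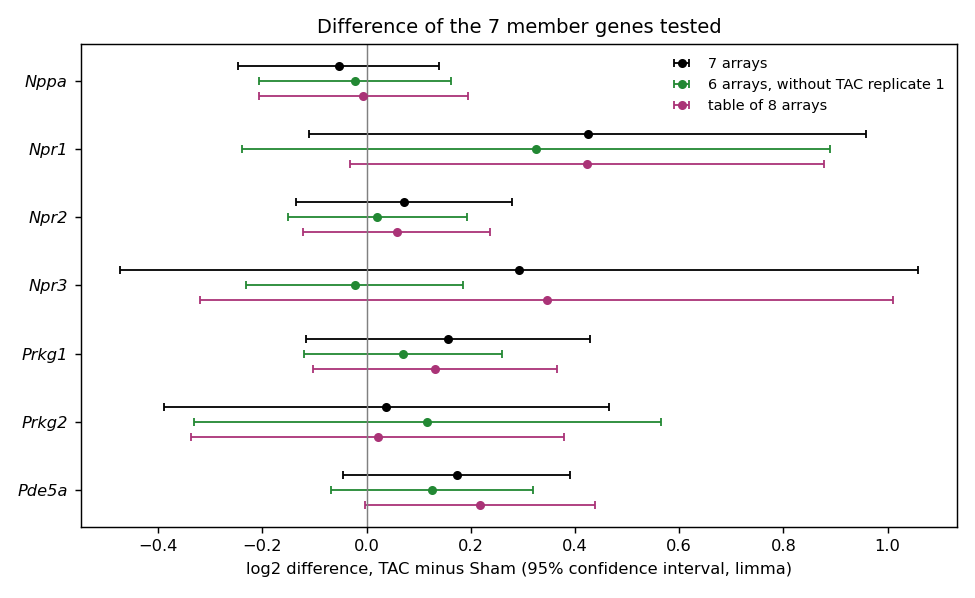
Difference between TAC and Sham for the 7 genes tested, in log2 units with limma's 95% interval, with all 7 arrays (black), without TAC replicate 1 (green) and in the table of 8 arrays (purple). Every interval includes 0, and Npr3 goes from 0.29 to -0.023 when TAC replicate 1 is left out.

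TAC replicate 1 was the highest of the 7 arrays for 5 of the 7 genes tested, namely Npr1, Npr2, Npr3, Prkg1 and Pde5a, while it was the highest for 18.2% of all probes. Across the 7 arrays Prkg1 and Pde5a had a Pearson r of 0.93, and 0.89 without TAC replicate 1, given as a description because the arrays share their slide and scaling. The 10 markers of smooth muscle and pericytes, cells in which both genes are known to act, had a mean between 0.064 and 0.40 on the TAC arrays and between -0.066 and 0.037 on the Sham arrays. Without Lmod1, whose probe was dim, the groups overlapped, with means of -0.016, 0.14, 0.49 and 0.0023 on the TAC arrays and -0.023, -0.039 and 0.062 on the Sham arrays. The markers did not move as one. On TAC replicate 1, 4 of the 10 were at their highest (Lmod1, Rgs5, Pdgfrb and Notch3), while Acta2, Tagln and Cspg4 were at their lowest. The 9 endothelial markers had means between -0.097 and 0.083 on all arrays. These markers did not move as one either, and 6 of the 9 had a higher mean in TAC than in Sham. Emcn had a level of -0.086 to 0.12 on the Sham arrays and 0.20 to 0.59 on the TAC arrays. Cldn5 had 2.70, 2.95 and 3.73 on the Sham arrays and 2.24, 2.18, 2.28 and 3.01 on the TAC arrays. The part of these cells in the levels of the 7 genes was not tested.

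The genes whose pattern over the 7 arrays was most like that of a receptor were sought by Pearson r among 13659 genes well above background on all arrays. Because these genes were picked for a high r, their r is given only as a description. For Npr1 they were Tead2, a transcription factor of the TEAD family, Rbpms, an RNA-binding protein, and Ushbp1, with r of 0.98, 0.97 and 0.97, and of 0.98, 0.96 and 0.96 without TAC replicate 1. In all, 84 genes had an r over 0.9 with Npr1. For Npr2 they were Tusc3, Gsdmd, which encodes a pore-forming protein of inflammatory cell death, and Sipa1, each with an r of 0.99 or more, and 409 genes were over 0.9. For Npr3 they were Gfra3, a receptor subunit for neurotrophic factors, Cdc20, an activator of the anaphase-promoting complex, and Bcl2a1d, a gene of the BCL2 family, and 498 genes were over 0.9. With Npr3 the r of these 3 genes was 0.996, 0.996 and 0.995 over 7 arrays, and 0.84, 0.79 and 0.75 without TAC replicate 1.

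A further 55 genes of the pathway were taken from 5 lists, and 45 of them could be tested. Because the lists were chosen with earlier results of these data known, their counts are given as a description. In limma 0 of the 45 passed an adjusted p of 0.05, and by the methods' t-test 0 did after adjustment. At an unadjusted p of 0.05, 1 was higher after TAC, beside 4.38% of all probes, and 5 were lower, beside 8.43%, which together made 13.3% of the 45. The groups did not overlap for 1 gene that was higher, beside 5.59% of all probes, and for 5 that were lower, beside 10.5%. The estimate was higher for 14 genes and lower for 31, with a median difference of -0.033, close to the median of all probes.

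Of 6 genes that process or degrade the peptides 4 were tested, and all 4 estimates were lower after TAC, beside 55.8% of all probes. Without TAC replicate 1, 3 of the 4 were lower and Furin was at 0.028. Ide, the insulin-degrading enzyme, which also cleaves natriuretic peptides, had a level of 2.58, 2.62 and 2.5 on the Sham arrays and 1.87, 2.30, 2.23 and 2.27 on the TAC arrays. Every TAC array lay below every Sham array, with a difference of -0.40 and a limma adjusted p of 0.297. Pcsk6, a proprotein convertase, differed by -0.23 and Mme, the peptidase neprilysin, by -0.14, and by -0.11 and -0.055 without TAC replicate 1. Corin, the protease that activates the Nppa product, and Ostn, a ligand of the clearance receptor, did not pass the filter on dim probes. Of 12 other genes of cGMP synthesis 9 were tested, and 4 estimates were higher and 5 lower. Gucy2d, a membrane guanylate cyclase, had -1.22, -1.24 and -1.06 on the Sham arrays and -1.70, -1.66, -1.54 and -1.56 on the TAC arrays, a difference of -0.44 with a limma adjusted p of 0.197. Its groups did not overlap either, whereas the nitric oxide synthases Nos2 and Nos3 differed by 0.34 and -0.075. Without TAC replicate 1 the difference of Nos2 was 0.18.

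Of 12 other phosphodiesterases of cGMP 10 were tested, and 4 estimates were higher and 6 lower. Pde6a, best known from rod photoreceptors, had a level of -2.88, -1.77 and -2.14 on the Sham arrays and -3.88, -3.80, -3.58 and -3.64 on the TAC arrays. Every TAC array was lower, with a difference of -1.46 (SE 0.25) and a limma adjusted p of 0.196, and with normexp background correction the difference was -0.73. Pde3a, which cGMP inhibits, differed by -0.55, but by -0.20 without TAC replicate 1, by -0.34 with normexp and by -0.18 as the mean of its probes, of which the other 2 lay at -0.43 and 0.45. Pde1a, a calmodulin-dependent enzyme, differed by -0.22, or by -0.12 without TAC replicate 1, and its groups overlapped once Sham replicate 1 was included. Of 15 substrates, channels and exporters of the cGMP kinase branch 12 were tested, with 6 estimates in each direction. Rgs2, a regulator of G protein signalling that the kinase of Prkg1 activates, had 6.66, 6.07 and 6.16 on the Sham arrays and 7.45, 7.37, 7.28 and 7.55 on the TAC arrays. All TAC arrays were higher, and the difference of 1.12 (SE 0.16) had a limma adjusted p of 0.196, while its other probe differed by 0.62. Mrvi1, a kinase substrate of the calcium store, differed by 0.22, or by 0.14 without TAC replicate 1. Abcc5, an exporter of cGMP, differed by 0.20, and its other 3 probes lay between -0.054 and 0.46.

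All 10 genes taken as targets of natriuretic peptide signalling in fat cells were tested. All 10 estimates were lower after TAC, beside 55.8% of all probes, with a median of -0.098. As the list was chosen with earlier results of these data known, this is a description and no test of the list. This count depended on TAC replicate 1 and on the probe, since without that array 9 were lower, beside 53.2% of all probes, and Ppargc1a, a coactivator of thermogenic genes, went from -0.0090 to 0.26. The other probe of Ppargc1a was at 0.12, and another probe of Nrf1 was at 0.29 while the one used was at -0.027. Ucp1 had a level of 9.40, 9.70 and 9.53 on the Sham arrays and 8.37, 9.22, 9.17 and 8.97 on the TAC arrays. All TAC arrays were lower, with a difference of -0.61 (SE 0.21) and a limma adjusted p of 0.336, and TAC replicate 1 was the lowest. Without it the difference was -0.42. Plin1, the perilipin of the lipid droplet, differed by -0.35 with overlapping groups and a limma adjusted p of 0.384, and Tfam, a mitochondrial transcription factor, by -0.15. Ucp1 is also one of the brown adipocyte markers that were low on TAC replicate 1.

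**Figure D4:**
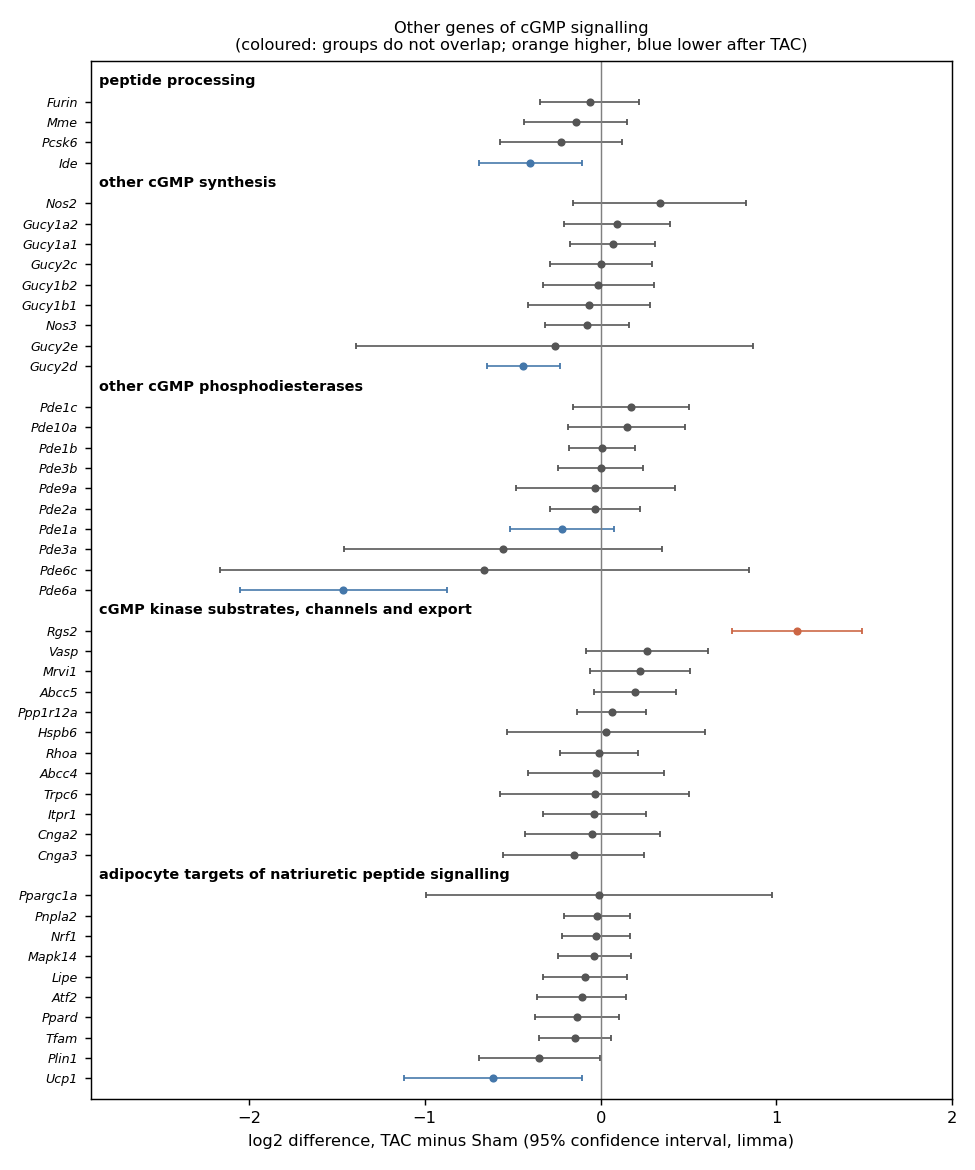
Difference between TAC and Sham, in log2 units with limma's 95% interval, for the 45 genes tested of the 5 pathway lists, in colour where the groups do not overlap (orange higher and blue lower after TAC). Rgs2 lies at 1.12 and Pde6a at -1.46, while the other genes lie between -0.66 for Pde6c and 0.34 for Nos2.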

How the data were processed

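Total RNA of BAT was labelled with Cy3 and hybridized to one-colour Agilent arrays, and the authors extracted spots with Agilent Feature Extraction 10.7.1.1, per the file headers. The deposited scanner values are background-subtracted intensities on a linear scale. The deposited table of 8 arrays holds intensity values that match the scanner intensities up to 1 constant per array and have a 75th percentile between 1.002 and 1.004. How the authors made it is not given in the sources used here.

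Of 59305 spots that are not controls, 134 to 191 per array were left out as outliers. From each log2 intensity the 75th percentile of the array (log2) was subtracted, after which spots of one probe were averaged. The filter kept probes that 3 or more arrays showed well above background and that had values on 2 or more arrays per group. The comparison used limma 3.58.1 (R 4.3.3; lmFit, eBayes), adjusted over 33364 probes by Benjamini-Hochberg, and the code was tested on simulated data. The number of arrays limits the precision.

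Symbols came from a RefSeq gene table of GRCm38.p6 through accessions without versions, which named 28020 probes or 50.3%. The array was designed on another assembly, so that probes have no coordinates here. Irag1 is listed there as Mrvi1. A gene with several probes is represented by the brightest. The members and lists were chosen with earlier results of these data known. All members, the 3 genes of each pathway list with the smallest p, and the 3 genes most like each receptor are named. Alternatives covered background correction, normalization, filters, the table, the methods' t-test, the replicate block and each array left out.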

Additional observations from a re-analysis of the deposited data

Results flagged for a closer look

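Dixon's gap test was applied to the 7 genes tested and to Npr1 minus Npr3, over the 4 TAC arrays on the scanner scale and the 4 Sham arrays of the table. Of these 16 groups, 2 held an array far from the other 3, where chance gives about 1 in 20. For Npr3 in TAC on the scanner scale, the gap between TAC replicate 1 and the nearest array was 0.850 of the range of the group. For Npr3 in Sham in the table of 8 arrays, the gap between Sham replicate 1, at 0.49, and the nearest array was 0.937 of the range.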

How the results depend on the processing

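The count of members past the adjusted threshold was 0 under all alternatives run, among the 7 genes tested or the 9 without the filter on dim probes. The count of pathway genes was also 0, among 43 to 55 genes depending on the filter. With the mean of all tested probes, pathway genes with several tested probes, such as Rgs2, had no p and could not be counted. Over all probes the count was 0, against 1 with median centring and 1 with normexp, and 0 to 8 when single arrays were left out, with 8 without TAC replicate 4. The cause was not tested. The median of the 7 genes lay between 0.043 and 0.20. Of 147 values of the 7 genes over 21 alternatives, 139 kept their sign and 8 did not. The smallest limma adjusted p was 0.262. These values are not independent. Alternatives that changed only the test, the filter or the averaging of probes left the estimates as they were, so their signs could not turn. The replicate block repeated the estimates without TAC replicate 1 on 7 arrays. In the table it repeated those of the 8 arrays. The labels name no pairs, and replicate numbers were not treated as pairs in the main comparison. Deviations of same-numbered arrays correlated at 0.0017, -0.026 and -0.021 and, in the table, at 0.27, 0.020, 0.056 and 0.020. In the table replicate 1 correlated best with its own number, and the other replicates did not. These correlations cannot show whether arrays were paired. With the replicate block 0 probes passed, and the difference on 7 arrays was -0.023 for Npr3, -0.040 for Bcl2a1d and -0.11 for Cdc20, a fit in which TAC replicate 1 has no partner. Signs also turned for Nppa, 0.0035 with normexp and 0.021 in the table without TAC replicate 1, an alternative added after the data were seen, and for Prkg2, -0.0019 with quantile normalization and -0.056 to 0.21 with single arrays left out. In that table Bcl2a1d was -0.31, Cdc20 -0.20 and Gfra3 -0.028. Leaving out single arrays gave -0.023 to 0.44 for Npr3, -0.040 to 0.93 for Bcl2a1d and -0.11 to 0.49 for Cdc20, lowest without TAC replicate 1. The change of Npr1 minus Npr3 was -0.031 with normexp and -0.027 to 0.35 with single arrays left out, lowest without TAC replicate 3 and highest without TAC replicate 1. With 3 and 4 arrays, the widest interval of the 7 genes, that of Npr3, still includes folds from 0.721 to 2.08. The narrowest, that of Nppa, runs from 0.843 to 1.1.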
